A study of Mus musculus with 8 samples.

Results

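The mitochondrial ribosomal protein genes were followed across the arrays of hippocampus from Ts1Cje and wild-type mice. They were taken as all non-control probes whose RefSeq accession maps to a mouse symbol of Mrpl or Mrps followed by a digit, which gave 78 of the 20660 named genes on the array, 49 of the large subunit (Mrpl) and 29 of the small subunit (Mrps). These genes had 100 probes, and 77 of them entered the test. The exception was Mrpl21, a large-subunit gene whose only probe stayed below the limit for a signal well above background on each of the 8 arrays.

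Total RNA was labelled with the dye Cy3 and hybridised to 8 one-colour arrays. There were 4 samples of each genotype, and all mice were of strain C57BL6/J and 3 months old. The Ts1Cje line models Down syndrome: a translocation adds a further copy of the end of chromosome 16, beginning at Sod1, and the genes beyond it are then present in 3 copies against 2. The translocation also disrupts 1 copy of Sod1 and has removed the tip of 1 chromosome 12, which the wild-type littermates keep. The extra copy is in every cell of the animal, so that its presence is not limited to a cell type, and sex is not stated in the labels. The series is described as 4 pairs of littermates, but no label says which arrays form a pair. Among the genes studied here Mrps6 lies in the triplicated segment, and Mrpl39 and Mrpl40 lie on the same chromosome proximal to it. All 8 arrays were on 1 slide. Replicates 1 and 2 lay in one row of it and replicates 3 and 4 in the other, and slide column and genotype cannot be told apart.

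Mitochondria carry their own ribosome, which translates the few proteins encoded by mitochondrial DNA, all of them core parts of the respiratory chain and the ATP synthase. Its ribosomal RNA is made in the organelle, while every one of its proteins is encoded in the nucleus, made in the cytosol and imported. Some of these proteins descend from the bacterial ribosome. The others are found in mitochondria only, and among their roles is to fix the ribosome to the inner membrane. Neurons of the hippocampus depend on oxidative phosphorylation for synaptic transmission, and inherited defects of single mitochondrial ribosomal proteins in humans cause encephalopathies and cardiomyopathies.

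The sequences just before the annotated starts of the 2 genes that the comparison turns on are shown first, because one of them is triplicated and the other is not. They are the 250 bases before the first transcribed base, from RefSeq on build GRCm38.p6, written 5′ to 3′ in the direction of transcription. Capitals mark the GC box GGGCGG in Mrps6, with 4 matches of which 2 overlap, and the NRF1 core GCATGCG in Mrpl39, where the 2 matches lie on opposite strands over the same palindrome.
Mrps6, chr16:92058086-92058335, forward strand: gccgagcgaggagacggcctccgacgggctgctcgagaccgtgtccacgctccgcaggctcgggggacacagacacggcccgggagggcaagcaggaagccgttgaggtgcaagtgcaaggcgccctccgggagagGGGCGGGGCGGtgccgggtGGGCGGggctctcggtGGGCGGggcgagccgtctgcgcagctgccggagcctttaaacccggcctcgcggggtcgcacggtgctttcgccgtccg
Mrpl39, chr16:84735245-84735494, reverse strand: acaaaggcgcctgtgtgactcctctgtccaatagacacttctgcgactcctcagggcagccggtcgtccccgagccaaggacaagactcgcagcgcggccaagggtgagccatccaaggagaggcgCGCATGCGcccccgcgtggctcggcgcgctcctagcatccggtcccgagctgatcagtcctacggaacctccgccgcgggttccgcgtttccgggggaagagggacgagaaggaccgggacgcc
The Mrps6 window is rich in GC boxes, whereas that of Mrpl39 holds the NRF1 core. Mrps6 and Slc5a3, which encodes the myo-inositol transporter, start on the same strand, with 14 bases between their annotated starts.

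Of the 6 motifs searched on both strands in windows from 250 bases before to 50 bases after the start, the ETS core CCGGAAG, bound by GABPA and related factors, had the share farthest above that of other genes. It was in 26 of the 69 mitochondrial ribosomal protein genes with a window (37.7%), against 9.93% of 27025 genes. The NRF1 core was in 8 of 69 (11.6% against 4.01%), the YY1 motif AAGATGG in 13 (18.8% against 7.28%) and the GC box in 34 (49.3% against 38.2%). The CCAAT box was in 27 (39.1% against 41.1%) and the E-box CACGTG in 5 (7.25% against 8.09%). A match is a run of letters and not a measured binding site. The 6 windows below, of 27 bases each with the ETS core in capitals, are examples from genes whose values are given further on. Each is printed on the strand that reads CCGGAAG. Mrpl3, Mrpl51, Mrpl53, Mrpl58, Mrps18a and Mrps27 are among the genes with such a window that is not printed. Of the genes printed, Mrpl34 had a log2 fold change above 0 and the others below 0.
Mrpl48, chr7:100583148-100583174, forward strand: catcttggttCCGGAAGtttttaaaac
Mrpl18, chr17:12916315-12916341, reverse strand: actgaaaacgCCGGAAGtagggggctg
Mrpl43, chr19:45006482-45006508, reverse strand: cgcggtgactCCGGAAGcaaaactctc
Mrpl34, chr8:71464879-71464905, forward strand: actacagctcCCGGAAGgccccgcggc
Mrps16, chr14:20393548-20393574, forward strand: agcctgaagcCCGGAAGagcgccccca
Mrps18c, chr5:100798593-100798619, reverse strand: gcttcccgggCCGGAAGtcacgtgacc
The median log2 fold change was -0.0089 over the genes with the ETS core and -0.026 over those without it, both close to 0.

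On each array 59.9% to 63.1% of the 55681 non-control probes were well above background, and no spot was saturated. Pearson's r between any pair of arrays, taken across genes, which are not independent replicates, lay between 0.992 and 0.996. Markers of hippocampal neurons (Prox1, C1ql2, Neurod6, Wfs1, Fibcd1 and Zbtb20) were well above background on all 8 arrays. Values are log2 signals minus the 75th percentile of the array, so that 1 unit is a doubling, and they are compared between arrays for 1 probe, never between genes. All 77 tested genes were well above background on all 8 arrays. A gene was called when its limma p-value, adjusted over all 24025 features by the Benjamini-Hochberg method, was under 0.05. In whole tissue, fewer cells of a type and less RNA per cell cannot be told apart.

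Most transcripts of mitochondrial ribosomal proteins (71 of 77) differed by less than 0.1 on the log2 scale between the genotypes, as did 14714 of all 24025 features. The triplicated Mrps6 had the largest difference of the 77. By the limma test none of the 77 passed the threshold over all features in either direction, where 0.175% of all features were called higher, 0.0208% lower and 0.196% in either direction. At an unadjusted p under 0.05 there was 1 higher gene, Mrps6, and 1 lower, Mrpl48, against 4.15% and 4.57% of all features (8.73% in either direction). With a threshold of 0.1 on the adjusted p, 0.408% of all features were called and still 0 of the 77. The arrays of the genotypes did not overlap for 1 gene that was higher in Ts1Cje, Mrps6, against 2.42% of all features, and for 5 that were lower, Mrpl48, Mrps17, Mrpl18, Mrpl42 and Mrpl50, against 3.7%.

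**Figure D1:**
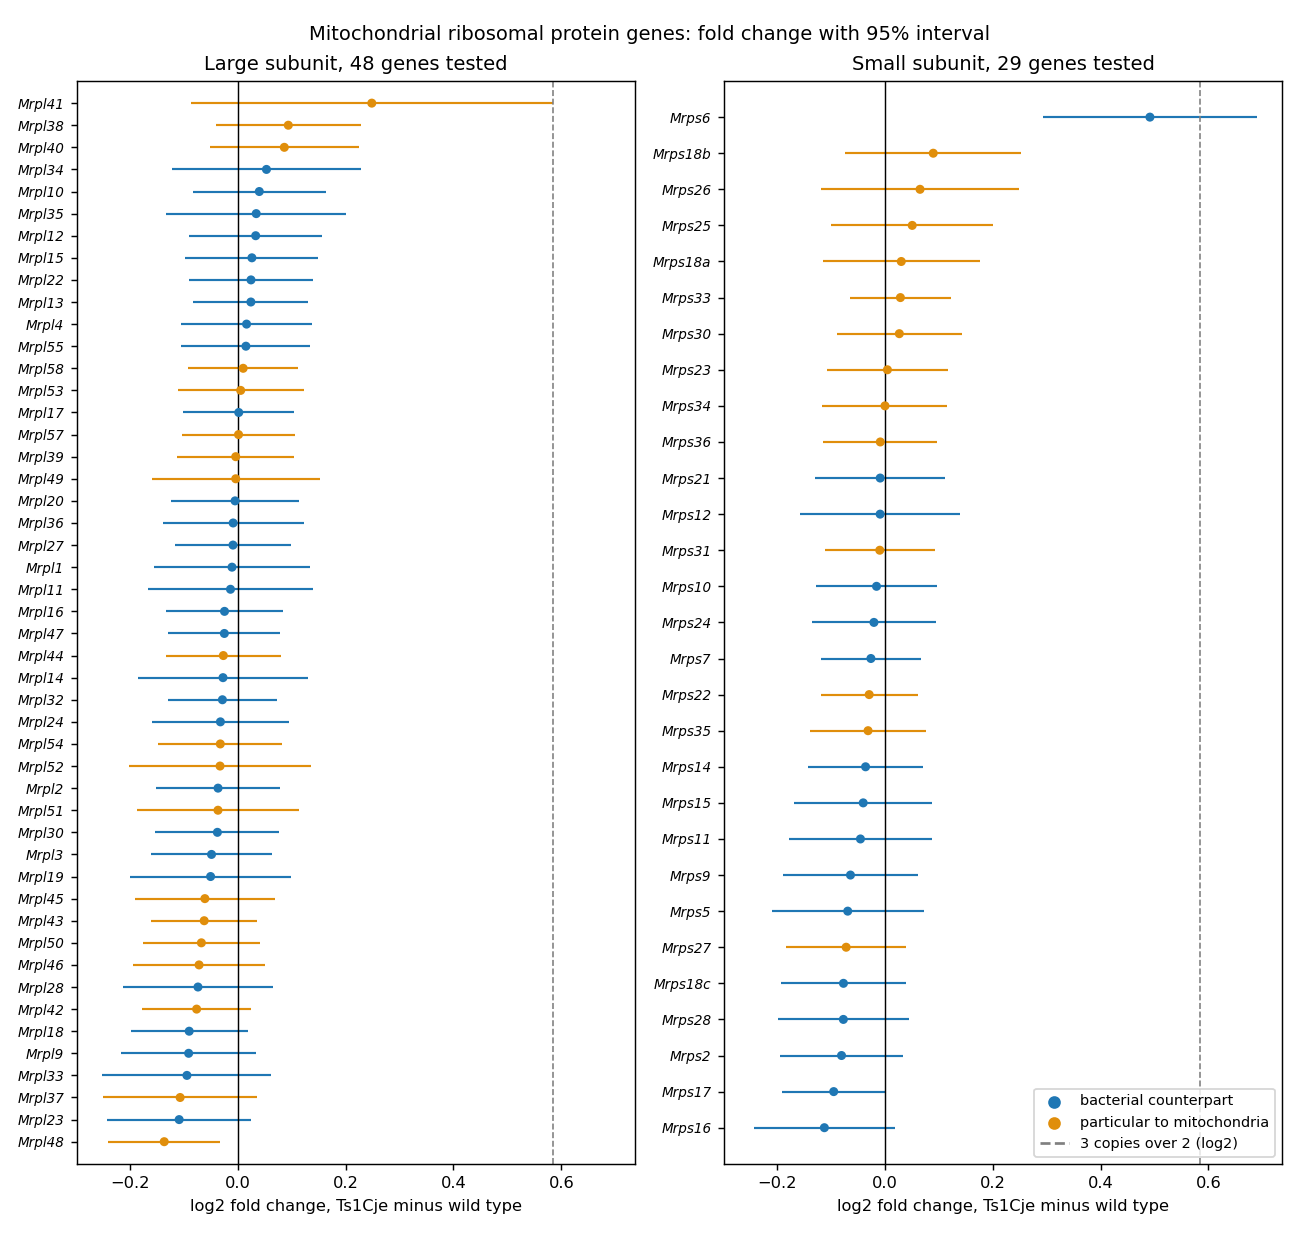
Log2 fold change (Ts1Cje minus wild type) of each tested mitochondrial ribosomal protein gene with its moderated 95% interval from limma, 48 of the large and 29 of the small subunit. Colours separate proteins with a bacterial counterpart from those particular to mitochondria, and the dashed line is the log2 of 3 over 2 (0.58). The interval of Mrps6 is the one that lies wholly above 0, and that of Mrpl48 wholly below it.

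Mrps6 encodes a small-subunit protein with a bacterial counterpart that sits on the platform of the subunit. Its log2 values in wild-type replicates 1 to 4 were 3.30, 3.53, 3.24 and 3.29. In Ts1Cje replicates 1 to 4 they were 3.94, 3.94, 3.69 and 3.76. All 4 Ts1Cje arrays were above all 4 wild-type arrays, and the nearest to each other were wild-type replicate 2 and Ts1Cje replicate 3. The means were 3.83 ± 0.13 and 3.34 ± 0.13 (SD, n = 4 each), a log2 fold change of 0.49 (SE 0.09) or 1.41-fold. The moderated 95% interval of 0.29 to 0.69 holds the log2 of 3 over 2, 0.58.

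For Mrps6 the limma p was 0.000435 before adjustment and 0.101 after it, so the gene missed the threshold. A two-sided exact permutation test of the single gene gave p = 0.0286, the smallest that the 70 assignments of 4 and 4 arrays can give. This p follows from the lack of overlap and adds nothing to it. Of all features 2.42% were higher without overlap. The difference was 0.53 between the arrays of the first slide row and 0.46 between those of the second. With the slide row as a block the limma adjusted p was 0.043, with normexp background correction and quantile normalization 0.0431, and with a trended and robust variance prior 0.0266. Over all alternatives the value lay between 0.44 and 0.55, with limma adjusted p-values from 0.0266 to 0.291.

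**Figure D2:**
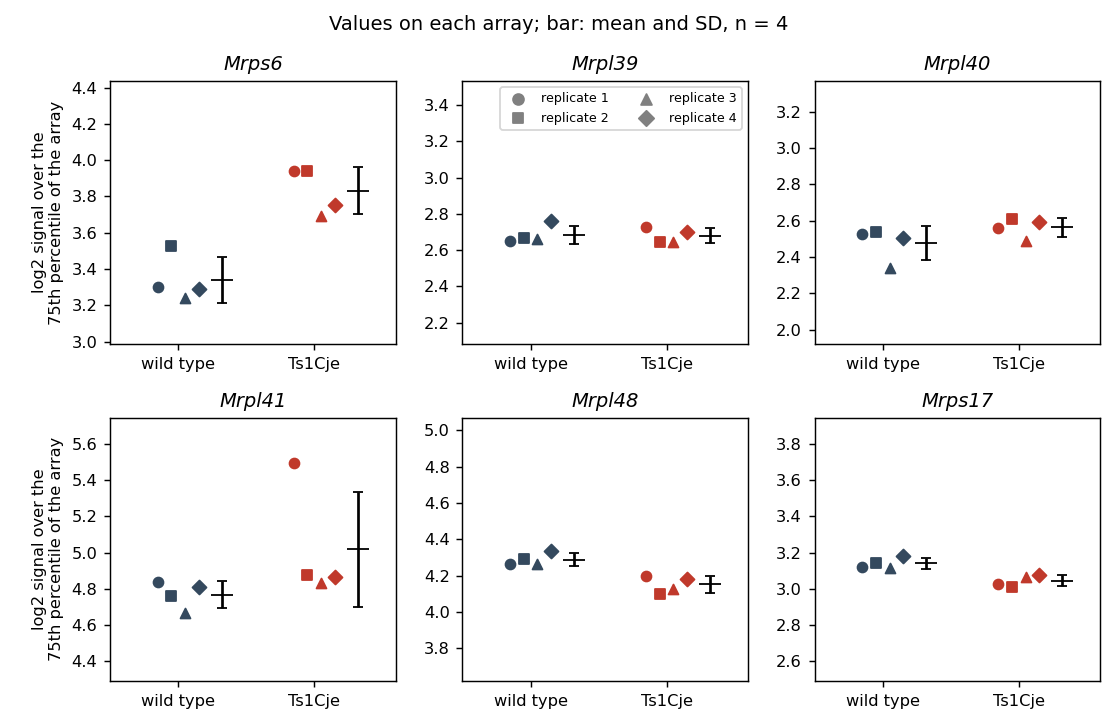
Log2 signal over the 75th percentile of the array for 6 mitochondrial ribosomal protein genes on each of the 8 arrays, with symbols for the replicate number and bars for the mean and SD (n = 4). Every panel spans the same number of log2 units, though not the same levels. The genotypes are apart for Mrps6 (higher in Ts1Cje) and for Mrpl48 and Mrps17 (lower), they overlap for Mrpl39 and Mrpl40, and Ts1Cje replicate 1 stands alone for Mrpl41.

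Mrps6 stood apart from the rest of its subunit. Taken as the deviation from its wild-type mean, minus the same deviation averaged over the 28 other small-subunit genes, Mrps6 stood at 0.59, 0.63, 0.41 and 0.43 in Ts1Cje replicates 1 to 4. The same quantity was -0.06, 0.19, -0.08 and -0.05 in wild-type replicates 1 to 4. The excess of Mrps6 over the rest of its subunit was thus 0.51 ± 0.11 (SD, n = 4), or 1.43-fold, and was present on every Ts1Cje array. The wild-type SD of the same quantity was 0.13.

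Of the 6 nearest tested genes beside Mrps6 on chromosome 16, 3 were called higher in Ts1Cje, against 0.175% of all features. On its proximal side Atp5o, a subunit of the ATP synthase stalk, rose by 0.45 (SE 0.05, limma adjusted p = 0.0163). On its distal side Smim11, which encodes a small membrane protein, rose by 0.52 (SE 0.06, limma adjusted p = 0.0186), and Rcan1, an inhibitor of calcineurin, by 0.54 (SE 0.06, limma adjusted p = 0.0105). Slc5a3, whose start is next to that of Mrps6, had a log2 fold change of 0.33 (SE 0.11) and an adjusted p of 0.44 by limma. Its Ts1Cje values of 0.24, 0.19, 0.04 and 0.16 overlapped the wild-type values of -0.34, 0.08, -0.36 and -0.08. Kcne2, a potassium channel subunit that was well above background on 3 of 4 wild-type arrays, had 0.64 (SE 0.22, limma adjusted p = 0.486). It was not called either, and its interval of 0.13 to 1.15 also lay above 0.

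Itsn1, an endocytic scaffold, was the one of these 6 neighbours near 0, at -0.06 (SE 0.05, limma adjusted p = 0.752) for its brightest probe. The mean over its probes gave 0.41 (limma adjusted p = 0.415), so that its probes differ in direction. The calls of Atp5o, Smim11 and Rcan1 were lost in 10, 9 and 6 of the 18 alternatives, with limma adjusted p-values up to 0.0944, 0.0941 and 0.0944, while their log2 fold changes stayed at or above 0.40, 0.47 and 0.49. Among these were the removal of any array but wild-type replicate 3 for Atp5o, of any array but the 2 of replicate 1 for Smim11, and of wild-type replicate 4 or Ts1Cje replicate 2, 3 or 4 for Rcan1. Without Ts1Cje replicate 2 the limma adjusted p was 0.0941 for Atp5o and Smim11 and 0.054 for Rcan1.

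Mrpl39, a large-subunit protein particular to mitochondria and related in sequence to threonyl-tRNA synthetases, is on chromosome 16 but outside the segment. Its values were 2.65, 2.67, 2.66 and 2.76 in wild-type replicates 1 to 4. In Ts1Cje replicates 1 to 4 they were 2.73, 2.64, 2.65 and 2.70. The genotypes overlapped on nearly their whole range. The log2 fold change was -0.0038 (SE 0.05) with an interval of -0.11 to 0.10, which lies below the log2 of 3 over 2 (limma adjusted p = 0.984). An exact permutation test gave p = 0.914. Its other probe gave -0.005 (SE 0.08).

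Mrpl40, also particular to mitochondria, lies on the same chromosome and farther from the segment, next to Hira in the region that corresponds to the human DiGeorge deletion. The wild-type values were 2.53, 2.54, 2.34 and 2.50 and the Ts1Cje values 2.56, 2.61, 2.49 and 2.59. Wild-type replicate 3 was the low array of its group, and the other wild-type arrays overlapped the Ts1Cje range. The log2 fold change was 0.09 (SE 0.06, limma adjusted p = 0.689) with its brightest probe and -0.0026 with the other, so that the direction depends on the probe.

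None of the 3 tested genes on either side of Mrpl39 was called, against 0.196% of all features. Proximally Btg3 had a log2 fold change of -0.08, D16Ertd472e of -0.12 and Ncam2 of 0.02. Distally Jam2 had 0.19, Atp5j, another ATP synthase subunit, -0.01 and Gabpa -0.15. Gabpa encodes the ETS-family factor that binds the core shown above, and its unadjusted limma p was 0.0454 (adjusted p = 0.569). Over the alternatives the values of Gabpa ran from -0.20 to -0.06.

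**Figure D3:**
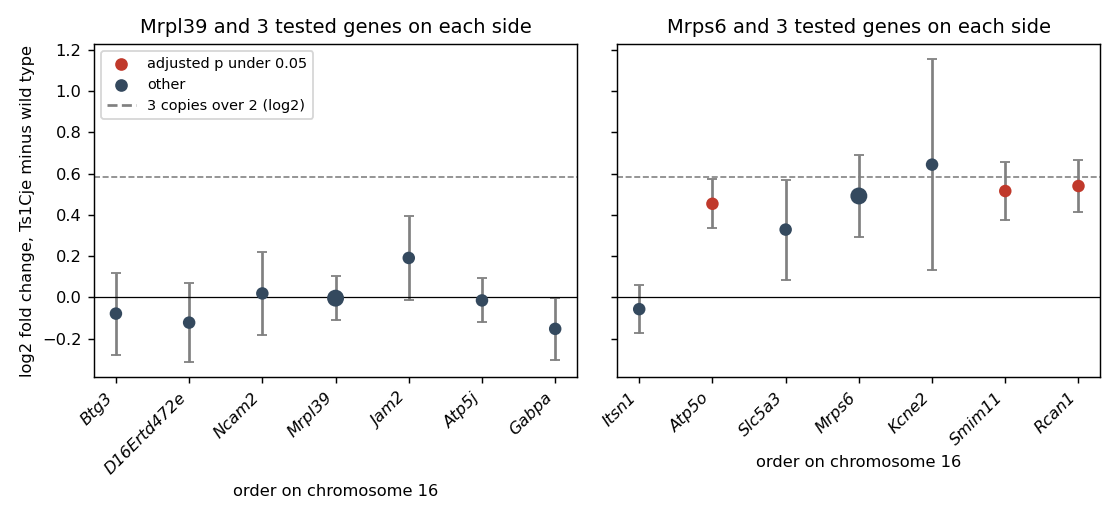
Log2 fold change (Ts1Cje minus wild type) with the moderated 95% interval from limma for Mrpl39 (left) and Mrps6 (right) and the 3 nearest tested genes on each side, in their order on chromosome 16, not to scale. Red points have an adjusted p under 0.05 and the dashed line is the log2 of 3 over 2 (0.58). Those around Mrpl39 lie between -0.15 and 0.19, while those around Mrps6, other than Itsn1 at -0.06, lie between 0.33 and 0.64.

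The large subunit as a whole lay near 0. Of its 48 tested genes 32 had a log2 fold change below 0, the median was -0.02 and the values ran from -0.14 (Mrpl48) to 0.25 (Mrpl41). Over all features the median was -0.0072 and 52.7% were below 0. Over all named genes 57% were, and over the 12874 features within the same range of level 59%. The small subunit had 20 of 29 below 0 and a median of -0.02, or -0.02 also without Mrps6, with the other 28 between -0.11 and 0.09. Together 52 of 77 genes (67.5%) were below 0, a share that depended on the scaling, since it was 53.2% with quantile normalization, 54.5% with normexp and 89.6% with the array median as centre. Centring on the median moved the median of all features itself to -0.06.

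Within the large subunit, 29 genes with a bacterial counterpart had a median of -0.01, with 19 below 0 and a range of -0.11 to 0.05. At the low end were Mrpl23, a protein at the rim of the exit tunnel, with -0.11 (SE 0.06), Mrpl33 with -0.09 (SE 0.07) and Mrpl9 with -0.09 (SE 0.05), and at the high end Mrpl34 with 0.05 (SE 0.08) and Mrpl10, the base of the stalk that recruits translation factors, with 0.04 (SE 0.05). Mrpl12, the stalk protein that also binds the mitochondrial RNA polymerase, had 0.03 (SE 0.05), and Mrpl11, at the stalk base, -0.01 (SE 0.07). Mrpl3 had -0.05 (SE 0.05), and Mrpl1 and Mrpl2 had -0.01 and -0.04. None of these passed the test, and Mrpl10 and Mrpl12 turned to -0.01 and -0.02 with the array median as centre.

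The 19 large-subunit genes particular to mitochondria had a median of -0.03, with 13 below 0. Mrpl38 had 0.09 (SE 0.06) and Mrpl37 -0.11 (SE 0.06). Mrpl45, which holds the ribosome to the inner membrane, had -0.06 (SE 0.06), Mrpl44, a relative of ribonuclease III, -0.03 (SE 0.05), and Mrpl58, which can free stalled peptides from transfer RNA, 0.01 (SE 0.04). Values below 0 in this group included Mrpl46 at -0.07, Mrpl50 at -0.07, Mrpl43 at -0.06 and Mrpl51 at -0.04, and Mrpl53 and Mrpl57 were within 0.01 of 0. This group held the widest values of the family outside Mrps6, those of Mrpl41 and Mrpl48.

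Mrpl48 had the lowest log2 fold change of all 77 genes. Its values were 4.26, 4.29, 4.26 and 4.34 in wild-type replicates 1 to 4 and 4.20, 4.10, 4.13 and 4.18 in Ts1Cje replicates 1 to 4. Every Ts1Cje array was below every wild-type array, with a gap of less than 0.1 between the nearest arrays. The log2 fold change was -0.14 (SE 0.05, interval -0.24 to -0.03) or 0.91-fold. Its exact permutation p of 0.0286 is the smallest that the test can give. Any gene whose arrays do not overlap gets this p, so it adds nothing to the lack of overlap. Of all features 3.7% were lower without overlap. The limma p was 0.016 and its adjusted value 0.457, and the alternatives ran from -0.19 to -0.11 with adjusted p-values of 0.26 to 0.77.

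Mrpl41 had the highest value after Mrps6, and it rested on 1 array. The wild-type values were 4.84, 4.76, 4.67 and 4.81, and the Ts1Cje values 5.49, 4.88, 4.83 and 4.86. Ts1Cje replicate 1 was far above the other 3, which lay just above or within the wild-type range. The log2 fold change was 0.25 (SE 0.15, limma adjusted p = 0.65) and was 0.09 without Ts1Cje replicate 1 and up to 0.31 over the other alternatives. A second probe of Mrpl41 showed the same array above the others of its group, at 0.01 against -0.33, -0.60 and -0.53, with a log2 fold change of 0.14. The second probe of Mrpl47 did likewise, at 0.44 in Ts1Cje replicate 1 against -0.55, -0.51 and -0.65, while its brightest probe gave -0.02 (SE 0.05).

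The 3 other large-subunit genes whose genotypes did not overlap differed by less than 0.1 on the log2 scale. Mrpl18, a protein of the central protuberance, was 3.11, 3.23, 3.14 and 3.12 in wild-type replicates 1 to 4 and 3.03, 3.11, 3.07 and 3.02 in Ts1Cje (log2 fold change -0.09, limma adjusted p = 0.625). Mrpl42 had -0.08 (limma adjusted p = 0.647) and Mrpl50 -0.07 (limma adjusted p = 0.69), the latter with -0.15 for its second probe. In each of these genes the gap between the nearest arrays of the genotypes was small beside the spread within a genotype.

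In the small subunit 15 of the 16 genes assigned a bacterial counterpart were below 0, with a median of -0.04, and Mrps6 was the exception. Of the Mrps18 family only Mrps18c was placed here. Mrps18a (0.03) and Mrps18b (0.09), both above 0, were placed in the other group. Of the 13 assigned as particular to mitochondria 5 were below 0, with a median of 0.0046, so that this group, as assigned, was centred on 0. It includes Mrps30 (0.03), Mrps18a and Mrps36 (-0.0086), which carry small-subunit names but are placed elsewhere, as given below. The groups were not recomputed without these genes, so that the contrast between the groups rests on this assignment. None in either group was called by limma, and the difference between the groups was seen in the data and not tested. The mean deviation of the 15 genes from their 8-array means, Mrps6 left out, was 0.04, 0.0021, 0.03 and 0.03 in wild-type replicates 1 to 4 and 0.0019, -0.03, -0.06 and -0.02 in Ts1Cje replicates 1 to 4. The genotypes did not overlap, though Ts1Cje replicate 1 and wild-type replicate 2 were nearly level, and the difference was -0.05. With Mrps6 included the difference was -0.02 and the genotypes overlapped. They also overlapped, without Mrps6, under normexp (-0.03, with 12 of 15 below 0), quantile normalization (-0.03, also 12 of 15) and the array median as centre (-0.10, with 15 of 15), and without Ts1Cje replicate 3 the difference was -0.04 with 12 of 15 below 0. For the 13 particular to mitochondria the difference of the same quantity was 0.01, with overlap, and it was -0.04 with the array median as centre and -0.0036 with the mean over probes.

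Mrps16, an assembly protein of the small subunit, had the lowest value there. It stood at 3.95, 3.79, 3.82 and 3.91 in wild-type replicates 1 to 4 and at 3.83, 3.78, 3.74 and 3.67 in Ts1Cje replicates 1 to 4, and the genotypes overlapped (log2 fold change -0.11, SE 0.06, limma adjusted p = 0.618). Mrps17, which binds ribosomal RNA early in assembly, was 3.12, 3.14, 3.12 and 3.18 in wild type and 3.03, 3.01, 3.06 and 3.08 in Ts1Cje, without overlap (log2 fold change -0.09, SE 0.04, limma adjusted p = 0.58). Its second probe gave -0.02. Mrps2 had -0.08, Mrps18c -0.08, Mrps28 -0.08 and Mrps5 -0.07, while Mrps12, at the decoding centre, Mrps10 and Mrps21 were between -0.02 and -0.01.

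Among the small-subunit genes assigned as particular to mitochondria, Mrps18b had 0.09 (SE 0.07), Mrps26 0.07 (SE 0.08), Mrps25 0.05 (SE 0.07) and Mrps33 0.03 (SE 0.04). Mrps27, a protein with pentatricopeptide repeats, had -0.07 (SE 0.05), Mrps22 -0.03 (SE 0.04) and Mrps34 0.0001 (SE 0.05). Mrps30 (0.03) and Mrps18a (0.03) carry small-subunit names, though structures place their proteins in the large subunit. Mrps36 (-0.0086) is now regarded as a part of the oxoglutarate dehydrogenase complex. With the former pair counted in the large subunit and Mrps36 left out, the median was -0.019 for the large subunit in place of -0.0247, and -0.0276 for the small subunit in place of -0.0204.

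The intervals of these genes were narrow. The moderated 95% interval excluded a change of 1.5-fold or more in either direction for 76 of the 77 genes, all but Mrps6, and for 20777 of the 24025 features. It excluded a change of 1.2-fold or more for 75 of 77, Mrps6 and Mrpl41 being the exceptions, for 11496 of all features, and for 8691 of the 12874 within the same range of level. The median SE was 0.05, against 0.08 over all features and 0.07 over those within the same range of level. Those features share the range but are not matched in level. Their median log2 value was 1.55, against 3.10 for the 77 genes, and the part of signal level in these differences was not tested. The median SD between arrays of a genotype was 0.06 in both Ts1Cje and wild type, against 0.10 and 0.12 over all features and 0.07 and 0.09 over features within the same range of level. For 71 of the 77 genes the log2 fold change was within 0.1 of 0, as it was for 14714 of the 24025 features and for 9350 of the 12874 within the same range of level.

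A score was formed for each array as the mean over the genes of the deviation from the 8-array mean of the gene. For the large subunit it was 0.02, 0.02, -0.02 and 0.02 in wild-type replicates 1 to 4 and 0.04, -0.01, -0.06 and -0.0013 in Ts1Cje replicates 1 to 4. The highest and the lowest array were both Ts1Cje, replicates 1 and 3. The score differed between genotypes by -0.02, with SDs of 0.04 in Ts1Cje and 0.02 in wild type, and by -0.0058 and -0.03 within the slide rows. For the small subunit without Mrps6 it was 0.03, 0.0079, -0.0079 and 0.02 in wild type and 0.03, -0.01, -0.05 and -0.007 in Ts1Cje. Here too the genotypes overlapped and Ts1Cje replicate 3 was the lowest array, and with Mrps6 included the difference was -0.0048 against -0.02 without it.

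**Figure D4:**
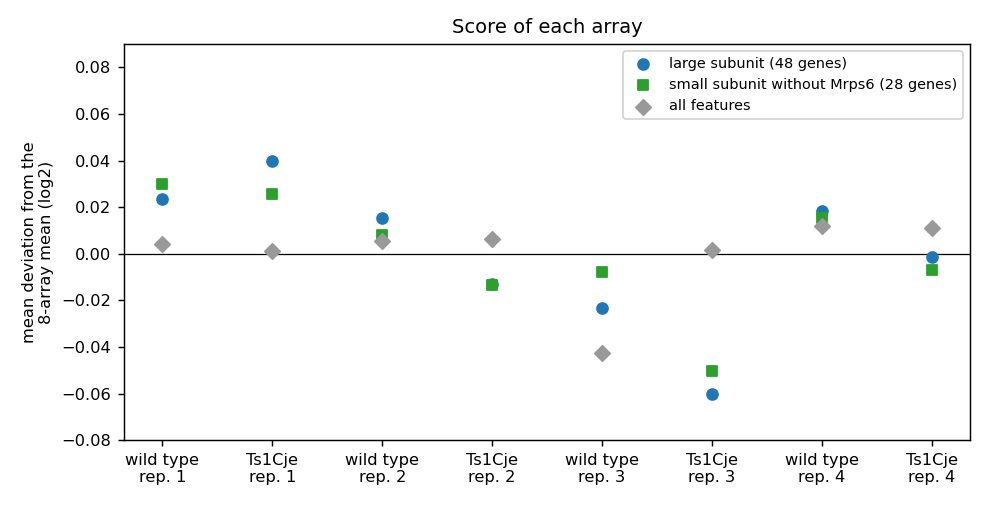
Score of each of the 8 arrays (mean deviation from the 8-array mean, log2 units) for the 48 large-subunit genes, the 28 small-subunit genes other than Mrps6 and all 24025 features, with arrays ordered by replicate number. The large and small subunits stand close together on each array, Ts1Cje replicate 3 is the lowest in both (-0.06 and -0.05), and the all-feature score departs from 0 mainly in wild-type replicate 3 (-0.04).

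Genes of both subunits shared the array on which they were low. In Ts1Cje replicate 3 only 7 of the 77 genes (9.09%) were above their own 8-array mean, against 44.4% of all features, and 25 had their lowest value there. Wild-type replicate 1 had 58 above their mean, and Ts1Cje replicate 1 had 55 and held the highest value for 21. Leaving out Ts1Cje replicate 3 brought the share of genes below 0 from 67.5% to 53.2% and the medians to -0.0043 (large subunit) and -0.0032 (small subunit), and leaving out wild-type replicate 3 raised it to 76.6%. The all-feature score of that wild-type array was -0.04, whereas those of the other 7 arrays lay between 0.0014 and 0.01.

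Of the 22 genes with 2 probes, 10 had probes of opposite sign. They were Mrpl10, Mrpl22, Mrpl27, Mrpl40, Mrpl47, Mrps14, Mrps23, Mrps25, Mrps33 and Mrps36. The probes of a gene differed by a median of 0.07 and by at most 0.21 (Mrpl47), so that no pair was apart by more than 0.5. These differences are of the size of the fold changes themselves. In the other 12 genes both probes had the same sign, as in Mrps2 (-0.08 and -0.08), Mrps17 (-0.09 and -0.02) and Mrpl4 (0.02 and 0.0098).

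**Figure D5:**
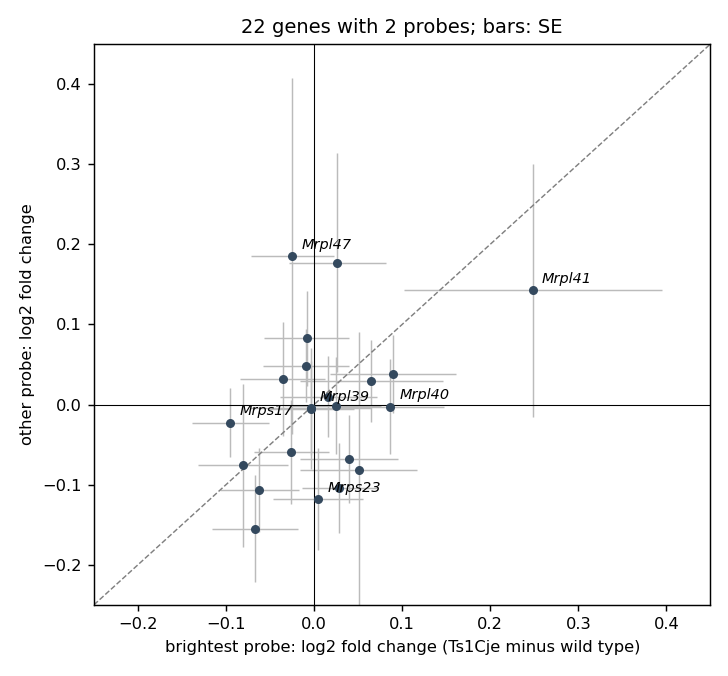
Log2 fold change (Ts1Cje minus wild type) of the brightest probe (x axis) against the other probe (y axis) of the 22 genes with 2 probes, with bars for the SE of each from limma. The dashed line marks equal values. The points gather around 0, with Mrpl41 to the right (0.25 and 0.14) and Mrpl47 above (-0.02 and 0.19).

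Genes that start close by on the opposite strand were common in the family. Such a start lay within 1000 bases for 27 of the 69 genes matched in RefSeq (39.1%), against 15.8% of all genes. Mrpl46 and Mrps11 start 42 bases apart and run away from each other, with -0.07 and -0.05. Mrpl43 starts 116 bases from Twnk, the helicase of mitochondrial DNA, with -0.06 and -0.19, and Mrps12 starts 147 bases from Sars2, the mitochondrial seryl-tRNA synthetase, with -0.01 and -0.02. Mrps27 and Ptcd2, an RNA-processing factor, had -0.07 each, and Mrpl18 and the chaperonin gene Tcp1 had -0.09 and -0.11. Other pairs had opposite signs, such as Mrpl40 and the histone chaperone gene Hira (0.09 and -0.15) and Mrpl37 and Cyb5rl (-0.11 and 0.09). Of the 23 pairs in which both genes were tested, 14 had both below 0, 3 both above and 6 opposite signs. The 23 tested partners outside the family had log2 fold changes of -0.19 to 0.14 with a median of -0.04. By limma 0 of them were called, against 0.196% of all features.

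The other genes of mitochondrial translation were compared through fixed lists, and none of their members was called in either direction by limma. Of all features 0.196% were called, so that few calls or none would come from lists of this length at that share. The 5 mitochondrial ribosomal proteins with other names had 2 members below 0, and Dap3, a GTP-binding protein of the small subunit, stood at -0.04 (limma adjusted p = 0.802). Of the 25 assembly and rRNA modification factors 17 were below 0 (median -0.02). The member with the smallest p was Tfb1m, which methylates the small-subunit ribosomal RNA, with 0.33, 0.29, 0.32 and 0.25 in wild type and 0.42, 0.56, 0.41 and 0.46 in Ts1Cje. Its arrays did not overlap, with a log2 fold change of 0.17 (SE 0.05, limma adjusted p = 0.404).

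Of the translation factors 13 of 14 were tested, with 6 below 0, and Tufm, the elongation factor that delivers aminoacyl-tRNA, had 0.14 (SE 0.06, limma adjusted p = 0.571). Of the mitochondrial aminoacyl-tRNA synthetases 16 of 17 were tested, with 8 below 0, and Fars2 had -0.09 (limma adjusted p = 0.663). Mtrfr and Nars2 were not analysed here. Of the 9 regulators of nuclear genes for mitochondria 5 were below 0, with values from -0.47 to 0.06. Gabpa, given above, had the smallest p, Nrf1 stood at -0.02 and Ppargc1a, a coactivator of mitochondrial biogenesis, at 0.02. Myc, a growth-related transcription factor, had the lowest value, at -0.47 (SE 0.22, limma adjusted p = 0.605). It was at -2.80, -2.66, -1.67 and -2.49 in wild type and at -2.87, -2.90, -2.91 and -2.81 in Ts1Cje, without overlap, and wild-type replicate 3 was far above the other arrays. The 13 proteins that the mitochondrial ribosome makes matched no probe by accession and were not analysed here.

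The 13 genes for transcription, maintenance and mRNA stability of mitochondrial DNA lay mostly below 0, with 12 below and a median of -0.04. Their scores were -0.06 to -0.0071 on the Ts1Cje arrays and 0.01 to 0.04 on the wild-type arrays, without overlap, and no test was made of this. They overlapped with normexp (9 of 13 below 0) and with the mean over probes (11 of 13), where the difference was -0.04 and -0.02 in place of -0.05. Twnk had the smallest p, with -1.60, -1.69, -1.55 and -1.66 in wild type and -1.70, -1.83, -1.93 and -1.80 in Ts1Cje (log2 fold change -0.19, SE 0.06, limma adjusted p = 0.44). Its arrays did not overlap. Tfam, which packages mitochondrial DNA, had -0.05 (SE 0.06), Polrmt, the mitochondrial RNA polymerase, -0.03 (SE 0.05) and Lrpprc, which stabilises mitochondrial mRNA, -0.0059 (SE 0.06).

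Markers of cells beside the hippocampal neurons were read on the same arrays, and none was called by limma, against 0.196% of all features. All 4 ependymal markers were below 0 (median -0.37), with scores of -0.40 to -0.03 in Ts1Cje and -0.05 to 0.35 in wild type, and all 4 choroid plexus markers were too (median -0.18, scores of -0.33 to 0.10 and -0.28 to 0.50). The 6 markers of hippocampal neurons had a median of -0.12 with 4 below 0, and scores of -0.09 to 0.03 in Ts1Cje and -0.01 to 0.08 in wild type. They went in both directions. C1ql2 (-0.25) and Fibcd1 (-0.19) were lower without overlap, against 3.7% of all features, and Wfs1 (0.30) was higher without overlap, against 2.42%. The others of this list overlapped. The 3 thalamic markers were all above 0 (median 0.10, scores of -0.0058 to 0.09 in Ts1Cje and -0.13 to 0.02 in wild type). The medians were -0.06 for astrocytes, -0.06 for oligodendrocytes, -0.0083 for microglia and 0.03 for endothelium. The 3 tested blood markers were above 0 (median 0.34), with scores from -0.85 to 0.88 in Ts1Cje and from -0.81 to 0.84 in wild type. All tested markers were well above background on all 8 arrays except Hbb-bs, and Alas2 was not tested. The part of these differences in the values of the mitochondrial ribosomal protein genes was not tested.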

How the data were processed

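RNA of 8 hippocampi was measured on 1-colour arrays. Per the file headers, Agilent Feature Extraction 10.10.1.1 quantified the spots of a probe design made on build mm9, and the deposited values are linear intensities: a background-corrected processed signal, not normalized between arrays, and median spot and background signals. Each label names a separate replicate, taken as a mouse, so p-values measure the spread between these samples.

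Control spots and flagged spots (133 to 175 of 59305 per array) were left out. Deposited processed intensities were put on the log2 scale, averaged per probe and centred on the 75th percentile of the array. A probe was kept where all 4 arrays of a genotype had it well above background. RefSeq accessions named 27235 probes (GRCm38.p6), and each gene was read from its brightest kept probe, which gave 24025 features, 15089 of them named genes. The test was limma 3.58.1 (R 4.3.3; lmFit and eBayes without a block), adjusted over all features. The fit was tested on simulated data. Files were read with pandas 2.3.3 in Python 3.11.15, and plots drawn with matplotlib 3.10.9.

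Members and lists were chosen with earlier results of these data known. Named genes are Mrps6 and Mrpl39, the 10 others with the smallest p in each direction, the member of each list with the smallest p, the 3 tested neighbours on each side and genes whose probes disagree. Others are named to show their role, after their values were seen. The role groups were assigned from knowledge of ribosomal protein families, and of the Mrps18 family only Mrps18c was counted as having a bacterial counterpart. Promoter windows and gene order come from RefSeq tables, which held windows for 69 of the 78 genes. Alternatives were other normalizations, centres, filters, probe rules, array weights, variance priors and blocks, and each array left out in turn. No mean signal was used here, so normexp (offset 50) ran on median signals.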

Additional observations from a re-analysis of the deposited data

Results flagged for a closer look

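Each of the 77 tested genes and the 3 scores over all genes, the large and the small subunit was examined in each genotype. In 11 of these 160 sets of 4 arrays 1 array stood apart by Dixon's criterion (the gap to the nearest array over the whole range, past its 95% critical value), where chance gives 8. Ts1Cje replicate 1 was the high array for Mrpl41 (ratio 0.933; 5.49 against 4.83 to 4.88), Mrpl11 (0.831; 4.70 against 4.51 to 4.55), Mrpl22 (0.852; 3.59 against 3.50 to 3.51) and Mrps23 (0.86; 4.24 against 4.08 to 4.10). Ts1Cje replicate 3 was the low array for Mrpl27 (0.973; 3.96 against 4.08 on each of the others).

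Wild-type replicate 3 was the low array for Mrpl40 (0.832; 2.34 against 2.50 to 2.54) and Mrpl11 (0.973; 4.45 against 4.63 to 4.64), and the high array for Mrpl50 (0.841; 2.92 against 2.79 to 2.81) and Mrps30 (0.879; 2.25 against 2.09 to 2.11). For Mrps24 wild-type replicate 4 was low (0.886; 2.64 against 2.71 to 2.72). For Mrps33 wild-type replicate 1 was low (0.86), though at 5.229 it was only about 0.01 below the others at 5.241 to 5.243.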

How the results depend on the processing

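The count of called features was 47, and 75 with normexp, 25 with the array median as centre, 23 without a filter on dim probes, 84 with array weights and 71 with a trended and robust prior. Leaving out 1 array gave 13 (without Ts1Cje replicate 4) to 44, with 19, 25, 24 and 28 without Ts1Cje replicates 2 and 3 and wild-type replicates 4 and 2. With the replicate number as a block the count was 1, Mrps6 kept 0.49 with a limma adjusted p of 0.11, and the calls of its neighbours Atp5o (limma adjusted p 0.0944), Smim11 (0.087) and Rcan1 (0.0944) were lost. The series is described as littermate pairs, but no label ties the numbers to them. The deviations of same-numbered arrays correlated at 0.237, 0.194, 0.106 and 0.05 (replicates 1 to 4). Ts1Cje replicates 1, 2 and 4 correlated best with their own number and replicate 3 with wild-type replicate 4 (0.141). Same-numbered arrays also lay in neighbouring columns of the same slide row. Littermates and slide position therefore cannot be told apart by these values, which do not settle the pairing. The 0 mitochondrial ribosomal protein genes called became 1, Mrps6, with normexp (0.4968), the trended and robust prior (0.4914) and the slide row as a block (0.4914). With the array median as centre the medians were -0.0751 (large subunit) and -0.0707 (small subunit), with all features at -0.0575; the centre moves every value alike.

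Mrpl39 turned positive with quantile normalization (0.0117) and without 1 of 3 arrays (-0.0202 to 0.0211 over all arrays left out). Other values near 0 changed sign: without wild-type replicate 3 Mrps26 (-0.0092, up to 0.1181 without another array) and Mrpl34 (-0.0003, up to 0.1023); Mrps25 (-0.0155), Mrpl10 (-0.014), Mrps33 (-0.0377) and Itsn1 (0.4141) with the mean over probes; Mrpl10 (-0.0104), Mrps33 (-0.0216), Mrpl12 (-0.0171) and Ncam2 (-0.0312) with the array median as centre; and Ncam2 with normexp (-0.0158). With 1 array left out Ncam2 ran from -0.0591 to 0.0653 and Atp5j from -0.0338 to 0.0009. The cause of these changes was not tested, and none of these genes passed the threshold under any alternative. The scores of the bacterial-type small-subunit genes without Mrps6, the small-subunit genes particular to mitochondria and the mitochondrial DNA list were recomputed under settings chosen after seeing the data. No member of the translation and assembly lists was called under any of the 18 alternatives.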
